A study of Arabidopsis thaliana with 12 samples.

Results

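The 10 nuclear genes of Arabidopsis thaliana followed here encode peroxide-reducing enzymes and their partners. They are the peroxiredoxin genes 2CPA (AT3G11630), 2CPB (AT5G06290), PRXQ (AT3G26060) and PRXIIE (AT3G52960), the reductase gene NTRC (AT2G41680), the sulfiredoxin gene SRX (AT1G31170), and the glutathione peroxidase-like genes GPX1 (AT2G25080), GPX7 (AT4G31870), GPX2 (AT2G31570) and GPX6 (AT4G11600). They were taken by locus identifier, and all 10 were present among the 21543 loci of the deposited count table. The table holds RNA-seq of whole two-week-old seedlings in 4 groups of 3 libraries: a med8 mutant on methyl viologen, med8 on control medium, wild-type Col-0 on methyl viologen, and Col-0 on control medium. The treated medium contained 25 nM methyl viologen in agar with sucrose, on which seeds were sown and seedlings grown until harvest, so the comparison is of growth on the herbicide, not of a short pulse. MED8 is part of Mediator, which connects transcription factors with RNA polymerase II. The labels give neither the med8 allele nor whether the replicates came from separate cultures, so p-values measure only the spread between these samples, which may be technical.

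Peroxiredoxins and glutathione peroxidase-like proteins reduce hydrogen peroxide and organic peroxides with a reactive cysteine, which is then regenerated by thioredoxins. In chloroplasts NTRC, a fusion of a thioredoxin reductase and a thioredoxin, passes electrons from NADPH to the 2-Cys peroxiredoxins 2CPA and 2CPB, and sulfiredoxin rescues 2-Cys peroxiredoxins whose cysteine has been overoxidised. Plant glutathione peroxidase-like enzymes use mainly thioredoxin in spite of their name. Methyl viologen takes electrons from photosystem I and gives them to oxygen, so superoxide and then hydrogen peroxide form in the chloroplast, where most of these enzymes work.

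Methyl viologen lowered the plastid 2-Cys peroxiredoxin genes and PRXQ in both genotypes, by 1.355-fold to 1.652-fold. The plastid GPX1 fell 2.51-fold in med8 and 1.29-fold in Col-0. GPX7, the scarce plastid paralogue of GPX1, fell 2.096-fold in med8 and rose 4.71-fold in Col-0. The rise was not called when the reads of an overlapping locus, which itself fell, were added. That locus supplied most of the summed reads in the controls, so the sum says little of GPX7 itself. Outside the plastid, GPX6 rose 1.46-fold in med8 and GPX2 rose 1.302-fold in Col-0. The Col-0 changes of GPX1 and GPX2 were each lost in 9 of the 12 fits that left out 1 library. NTRC and SRX fell in med8, and neither passed the test in Col-0. The difference between the effects in med8 and Col-0 passed the test for GPX1 and GPX7. It did not pass for NTRC, SRX, GPX6 or GPX2.

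The libraries held 30.47 M to 34.69 M counts. Levels are counts-per-million (CPM) values with TMM-scaled library sizes, means as mean ± SD over 3 libraries, and differences as log2 fold change ± SE. "Rose" and "fell" are used where the Benjamini-Hochberg adjusted p of edgeR's quasi-likelihood test, adjusted over all 20741 loci tested, was under 0.05. All 10 genes passed the count filter. MED8 itself stood between 4.85 and 6.41 CPM in the med8 libraries and between 18.9 and 22.2 CPM in the Col-0 libraries. One Col-0 control library (replicate 1) and one med8 control library (replicate 3) stood apart from the others of their groups over all loci, with a chi-square per degree of freedom of 25.98 to 37 against them, where other replicate pairs had 5.84 to 20.8. Results that change without them are given with both values.

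Close relatives among these genes could be told apart by the reads. No window of 75 bases, the length of the reads, was shared between any of the 10 transcripts or between them and the other peroxiredoxin and glutathione peroxidase-like genes. The closest windows were those of the 2-Cys pair, with 4 mismatches, and those of the plastid GPX pair, with 6. They are shown because the results turn on separating these paralogues. The sequences are spliced coding sequence, 5′ to 3′, from RefSeq TAIR10.1, with the bases that differ within each pair in capitals, and the coordinates span introns.
2CPA, chr3:3673664-3673829, plus strand: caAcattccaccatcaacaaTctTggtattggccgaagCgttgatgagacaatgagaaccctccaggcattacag
2CPB, chr5:1920918-1921103, plus strand: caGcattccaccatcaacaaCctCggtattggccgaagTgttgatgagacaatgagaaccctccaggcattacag
GPX1, chr2:10668773-10669359, plus strand: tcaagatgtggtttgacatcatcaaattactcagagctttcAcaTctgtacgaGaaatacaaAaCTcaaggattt
GPX7, chr4:15410705-15410972, plus strand: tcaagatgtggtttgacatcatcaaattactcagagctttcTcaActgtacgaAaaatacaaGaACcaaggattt

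On TAIR10.1 the peroxiredoxin loci are 2CPA at chr3:3672036-3674159 (plus strand), 2CPB at chr5:1919080-1921425 (plus), PRXQ at chr3:9524590-9526501 (plus) and PRXIIE at chr3:19639549-19640710 (plus). NTRC lies at chr2:17376155-17379059 (minus) and SRX at chr1:11133410-11135189 (plus). The GPX loci are GPX1 at chr2:10667898-10670127 (plus), GPX7 at chr4:15410078-15412486 (plus), GPX2 at chr2:13437974-13439923 (minus) and GPX6 at chr4:7009769-7011406 (minus). Of the 10 loci 5 overlap a neighbour on the other strand: 2CPA (14.6% of its exon bases), NTRC (4.63%), GPX2 (4.92% and 4.25%, with separate neighbours), GPX6 (2.73%) and GPX7 (43.9%). The strand setting of the counting is not given in the sources used here. For GPX7, whose overlap is with AT4G31875, the values of both loci are therefore given below.

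The plastid isoforms GPX1 and GPX7 both fell in med8. In Col-0 GPX7 rose and GPX1 fell, a fall lost in 9 of the 12 fits that left out 1 library. The 250 bases before the annotated start of each gene are shown for comparison. Both windows were searched on both strands for the G-box CACGTG, the evening element AAATATCT, the CCA1-binding site AAAAATCT, the W-box core TTGACC, the mitochondrial dysfunction motif and the TGA core TGACGTCA. None of the 6 had a match in these 2 windows, and each is found in 0.521% to 12.3% of 21478 windows of the same length. A motif without a match is only a set of letters not found in the window. The sequences are from RefSeq TAIR10.1, 5′ to 3′ along the gene.
GPX1, chr2:10667648-10667897, plus strand: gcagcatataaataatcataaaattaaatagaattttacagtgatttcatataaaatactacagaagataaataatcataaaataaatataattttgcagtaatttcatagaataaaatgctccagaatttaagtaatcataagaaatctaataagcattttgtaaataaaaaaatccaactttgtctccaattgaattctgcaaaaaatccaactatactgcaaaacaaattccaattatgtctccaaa
GPX7, chr4:15409828-15410077, plus strand: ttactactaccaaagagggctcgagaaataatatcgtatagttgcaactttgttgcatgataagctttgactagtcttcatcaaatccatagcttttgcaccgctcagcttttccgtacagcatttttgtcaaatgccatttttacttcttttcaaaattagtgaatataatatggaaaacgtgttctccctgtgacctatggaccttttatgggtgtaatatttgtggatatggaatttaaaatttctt

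Per length of exon, 2CPA was the most abundant of the 10 transcripts in every group, with 433 ± 19.5 RPKM (CPM divided by exon length in kilobases) in med8 on methyl viologen, 715 ± 78.7 in med8 controls, 460 ± 25.1 in treated Col-0 and 623 ± 45.5 in Col-0 controls. GPX1 was second in med8 controls (425 ± 45.2 RPKM), in Col-0 on methyl viologen (260 ± 44.7 RPKM) and in Col-0 controls (334 ± 16.9 RPKM). In med8 on methyl viologen GPX6 took that place with 302 ± 8.94 RPKM, and GPX1 averaged 169 ± 10.13 RPKM, also behind PRXQ with 218 ± 8.54 RPKM. In that group no neighbours in the order overlapped, whereas in Col-0 on methyl viologen GPX1 overlapped GPX6, PRXQ overlapped GPX2 and 2CPB overlapped NTRC. In Col-0 controls 2CPB, PRXIIE and GPX2 overlapped in turn, and in med8 controls GPX6, 2CPB, PRXIIE, GPX2 and NTRC did. In every group SRX had the next-to-lowest mean, at 20.6 to 24.7 RPKM, and GPX7 the lowest, at 0.621 to 3.25 RPKM.

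**Figure D1:**
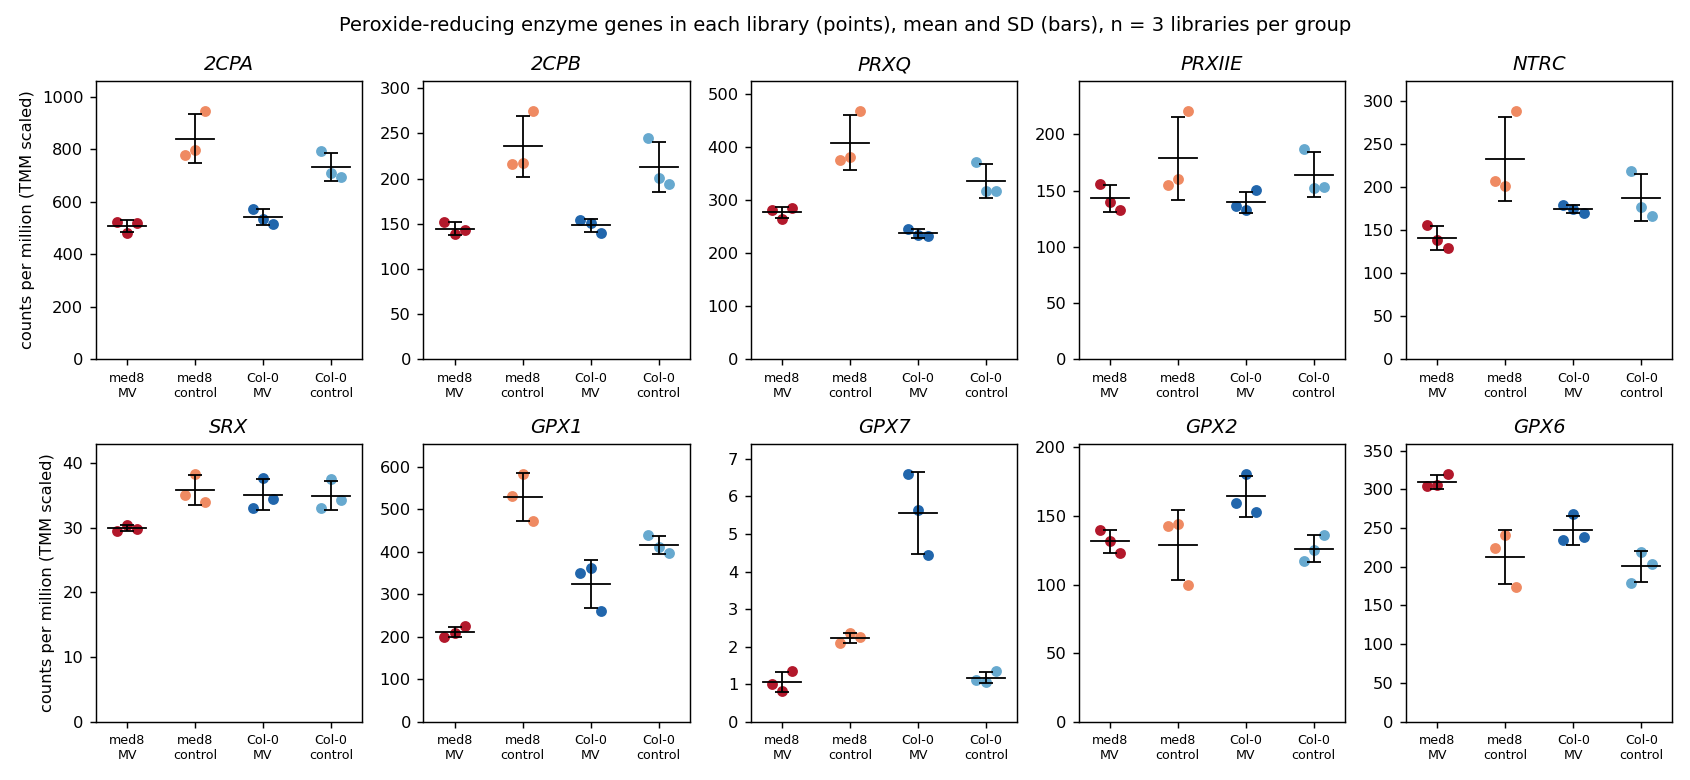
CPM (TMM scaled, linear axes from 0) of the 10 genes in each of the 12 libraries, with med8 on methyl viologen (MV), med8 control, Col-0 on MV and Col-0 control from left to right. Points are libraries and bars are mean and SD of 3 libraries. The 3 Col-0 libraries on MV hold 4.44 to 6.61 CPM of GPX7, above every other library, and the 3 med8 libraries on MV hold 200 to 225 CPM of GPX1, below every other library.

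In med8, methyl viologen changed 8 of the 10 genes, 7 lower and 1 higher, where 43.1% of all loci tested changed, 21.2% lower and 21.8% higher. In Col-0 it changed 6, of which 4 were lower and 2 higher, where 28.8% of all loci changed, 13.4% lower and 15.4% higher. The split of all loci by direction depends on the scaling: with library totals 8787 loci were higher and 2336 lower in med8, against 4528 and 4403 with TMM, and 5283 were higher and 1691 lower in Col-0, against 3191 and 2778 with TMM. The median log2 fold change of the 10 genes was −0.63 in med8 (all loci 0.03) and −0.17 in Col-0 (all loci −0.0013). The libraries on methyl viologen did not overlap those on control medium for 8 genes in med8 and for 8 in Col-0, against 53.2% and 44.2% of all loci.

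**Figure D2:**
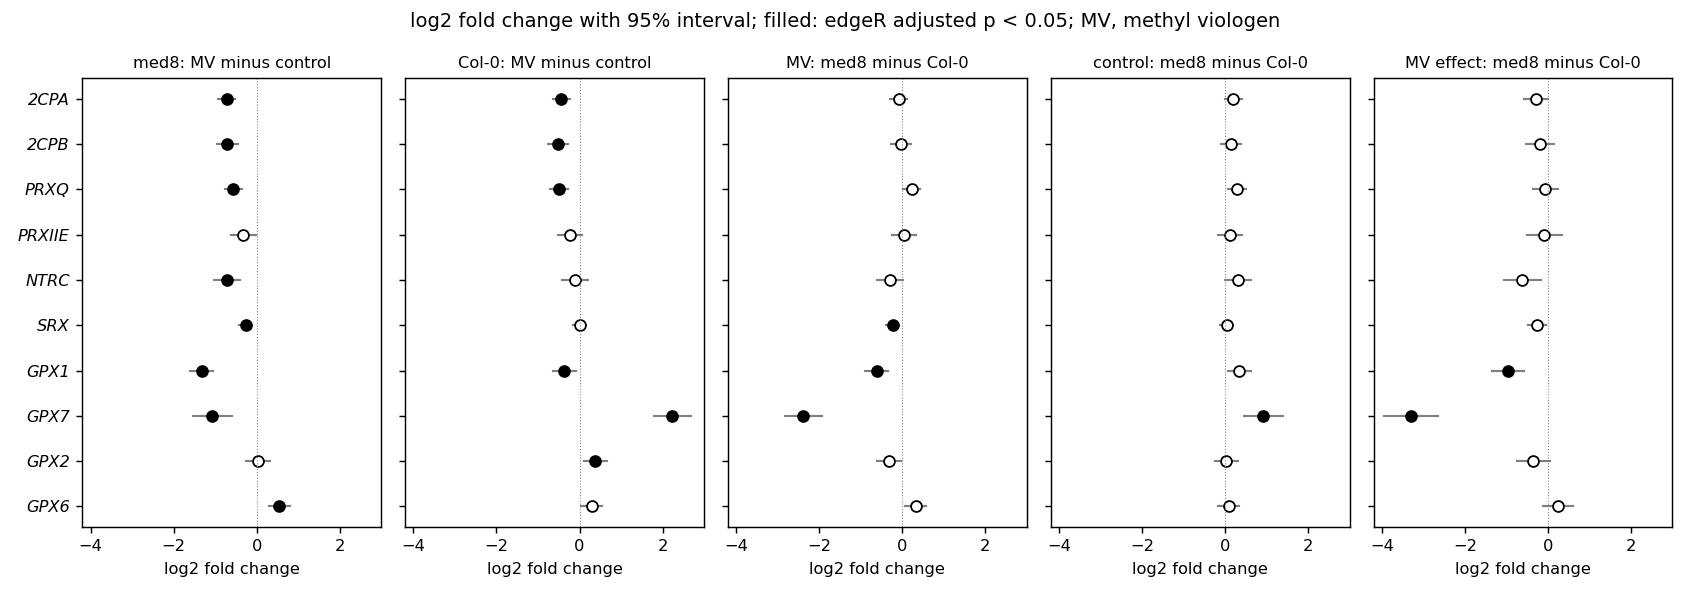
Log2 fold changes (x axis) of the 10 genes with 95% intervals in 5 comparisons, filled where the edgeR adjusted p was under 0.05. The last panel is the methyl viologen (MV) effect in med8 minus that in Col-0, where GPX1 (−0.97) and GPX7 (−3.30) are filled.

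The 2-Cys peroxiredoxins are the most abundant peroxide scavengers of the stroma. 2CPA had 524, 483 and 520 CPM in med8 on methyl viologen, against 779, 796 and 947 CPM in med8 controls. In Col-0 it had 573, 536 and 514 CPM on methyl viologen, against 794, 710 and 695 CPM on control medium. Every library on methyl viologen was below every control library of its genotype. 2CPA fell in med8 (−0.72 ± 0.09, edgeR adjusted p = 9.68e-05) and in Col-0 (−0.44 ± 0.09, edgeR adjusted p = 0.00439). The difference between these effects did not pass the test (−0.29 ± 0.13, 95% interval −0.57 to 0.0018, edgeR adjusted p = 0.189).

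2CPB, which encodes the second 2-Cys enzyme, also fell in both genotypes, from a lower level per length of transcript. It had 152, 139 and 143 CPM in med8 on methyl viologen, against 216, 217 and 275 CPM in med8 controls. Col-0 libraries held 154, 151 and 140 CPM on methyl viologen, against 245, 200 and 194 CPM on control medium. The groups were again separate within each genotype. 2CPB fell in med8 (−0.71 ± 0.11, edgeR adjusted p = 0.000388) and in Col-0 (−0.52 ± 0.11, edgeR adjusted p = 0.00445), and the interaction was −0.18 ± 0.16 (95% interval −0.53 to 0.16, edgeR adjusted p = 0.509).

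PRXQ encodes a monomeric plastid peroxiredoxin. It had 282, 265 and 285 CPM in med8 on methyl viologen, against 377, 382 and 469 CPM in med8 controls. The Col-0 values were 246, 233 and 232 CPM on methyl viologen, against 373, 317 and 317 CPM on control medium. PRXQ fell in med8 (−0.56 ± 0.10, edgeR adjusted p = 0.000733) and in Col-0 (−0.50 ± 0.10, edgeR adjusted p = 0.00259), and the interaction was −0.06 ± 0.14 (95% interval −0.36 to 0.24, edgeR adjusted p = 0.841). On methyl viologen, as on control medium, each med8 library was above each Col-0 library in PRXQ, but neither genotype comparison passed (0.22 ± 0.10, edgeR adjusted p = 0.119, and 0.29 ± 0.10, edgeR adjusted p = 0.111). Leaving out med8 control replicate 3 (0.22, edgeR adjusted p = 0.0484) or both libraries that stood apart (0.22, edgeR adjusted p = 0.0108) brought the first of these past the threshold. Leaving out Col-0 control replicate 1 (0.37, edgeR adjusted p = 0.0473) or both (0.27, edgeR adjusted p = 0.0362) did so for the second. The first also passed with library totals (0.27, edgeR adjusted p = 0.0415) and with only the groups compared (0.23, edgeR adjusted p = 0.0335). It passed too with the root marker covariate described below (0.28, edgeR adjusted p = 0.0164). The second also passed with DESeq2 (0.29, DESeq2 adjusted p = 0.0432).

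PRXIIE, a stromal type II peroxiredoxin that draws on glutaredoxin, had lower means on methyl viologen but did not pass the test. It averaged 143 ± 11.9 CPM on methyl viologen and 179 ± 36.8 CPM on control medium in med8 (−0.32 ± 0.13, edgeR adjusted p = 0.0747). In Col-0 it averaged 140 ± 9.28 CPM on methyl viologen and 164 ± 19.8 CPM on control medium (−0.23 ± 0.13, edgeR adjusted p = 0.224). In med8 the libraries overlapped, and in Col-0 they did not. The med8 value passed without med8 control replicate 1 (−0.41, edgeR adjusted p = 0.0407) and with DESeq2 (−0.34, DESeq2 adjusted p = 0.0392), and the Col-0 value passed with the root marker covariate described below (−0.34, edgeR adjusted p = 0.0235).

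NTRC had 156, 138 and 129 CPM in med8 on methyl viologen, against 207, 201 and 288 CPM in med8 controls. Col-0 libraries held 179, 174 and 169 CPM on methyl viologen, against 218, 177 and 167 CPM on control medium. The med8 groups were separate and the Col-0 groups overlapped. NTRC fell in med8 (−0.72 ± 0.14, edgeR adjusted p = 0.00175) and gave −0.11 ± 0.14 in Col-0 (95% interval −0.41 to 0.20, edgeR adjusted p = 0.621). The interaction itself was −0.61 ± 0.20 (95% interval −1.05 to −0.18, edgeR adjusted p = 0.065), so the difference between the genotypes was not called. It passed without Col-0 control replicate 1 (−0.74, edgeR adjusted p = 0.0258), without med8 control replicate 2 (−0.71, edgeR adjusted p = 0.0418) and without both libraries that stood apart (−0.57, edgeR adjusted p = 0.00352). With DESeq2 the interaction passed as well (−0.63, DESeq2 adjusted p = 0.02125).

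SRX, whose product repairs overoxidised 2-Cys peroxiredoxins, had small differences. It had 29.5, 30.4 and 29.8 CPM in med8 on methyl viologen, against 35, 38.3 and 33.9 CPM in med8 controls, 33, 37.7 and 34.4 CPM in treated Col-0 and 33, 37.4 and 34.3 CPM in Col-0 controls. The 3 med8 libraries on methyl viologen were the lowest of the 12. SRX fell in med8 (−0.26 ± 0.07, edgeR adjusted p = 0.0122) and gave 0.01 ± 0.07 in Col-0 (95% interval −0.15 to 0.16, edgeR adjusted p = 0.966), and the interaction was −0.26 ± 0.10 (edgeR adjusted p = 0.113). The med8 fall did not pass without med8 control replicate 2 (−0.21, edgeR adjusted p = 0.0547), nor when libraries were scaled by their totals (−0.03, edgeR adjusted p = 0.739), a scaling that raised the median of all loci by 0.23 in this comparison.

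GPX1 had the largest fall of the 10 genes in med8. It had 200, 208 and 225 CPM in med8 on methyl viologen, against 532, 584 and 471 CPM in med8 controls. Col-0 libraries held 350, 362 and 260 CPM on methyl viologen, against 439, 412 and 398 CPM on control medium. The order of the groups was therefore highest in med8 controls, then Col-0 controls, then Col-0 on methyl viologen and lowest in med8 on methyl viologen, with no overlap between any of them. GPX1 fell in med8 (−1.33 ± 0.12, edgeR adjusted p = 1.14e-05) and in Col-0 (−0.36 ± 0.12, edgeR adjusted p = 0.0443), and the interaction was −0.97 ± 0.17 (edgeR adjusted p = 0.00349). The Col-0 fall lay near the threshold. It was called in 3 of the 12 fits that left out 1 library, with values of −0.45 to −0.23. It was lost without any of Col-0 control replicates 1, 2 and 3 or Col-0 methyl viologen replicates 1 and 3. It was also lost, at an unchanged −0.36, without med8 control replicate 1 or any of the 3 med8 libraries on methyl viologen. Without both libraries that stood apart it was −0.32 (edgeR adjusted p = 0.0669). The med8 fall and the interaction were called in all 12.

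GPX7 is the second plastid isoform, and its counts were low. It had 1.01, 0.82 and 1.36 CPM in med8 on methyl viologen, against 2.1, 2.36 and 2.24 CPM in med8 controls. In Col-0 it had 6.61, 5.63 and 4.44 CPM on methyl viologen, against 1.11, 1.07 and 1.36 CPM on control medium. The groups were separate in both genotypes and ran in opposite directions. GPX7 fell in med8 (−1.07 ± 0.21, edgeR adjusted p = 0.00191) and rose in Col-0 (2.24 ± 0.21, edgeR adjusted p = 1.78e-05), and the interaction was −3.30 ± 0.30 (edgeR adjusted p = 5.26e-05). All 3 calls held in each of the 12 fits without 1 library, where the interaction lay between −3.52 and −3.15.

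The counts behind these values were 35, 30 and 52 reads in med8 on methyl viologen, 61, 70 and 63 in med8 controls, 244, 194 and 156 in treated Col-0 and 34, 33 and 43 in Col-0 controls. AT4G31875, a protein-coding locus that lies within the last GPX7 exon on the other strand, had 79, 78 and 90 reads in med8 on methyl viologen, 245, 221 and 77 in med8 controls, 72, 89 and 53 in treated Col-0 and 190, 150 and 177 in Col-0 controls. AT4G31875 fell in med8 (−1.46 ± 0.34, edgeR adjusted p = 0.00451) and in Col-0 (−1.46 ± 0.34, edgeR adjusted p = 0.00764), and the interaction was −0.0033 ± 0.50 (edgeR adjusted p = 0.999). With the reads of both loci added together, the value was −1.35 ± 0.25 in med8 (edgeR adjusted p = 0.00114), 0.17 ± 0.24 in Col-0 (edgeR adjusted p = 0.632) and −1.52 ± 0.34 for the interaction (edgeR adjusted p = 0.0127). The Col-0 rise of GPX7 was thus not called in the sum. In the controls of both genotypes and in med8 on methyl viologen AT4G31875 supplied most of the summed reads, so the sum says little of GPX7 itself. How well the counting separated the strands was not tested. That sum was added after the data were seen.

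**Figure D3:**
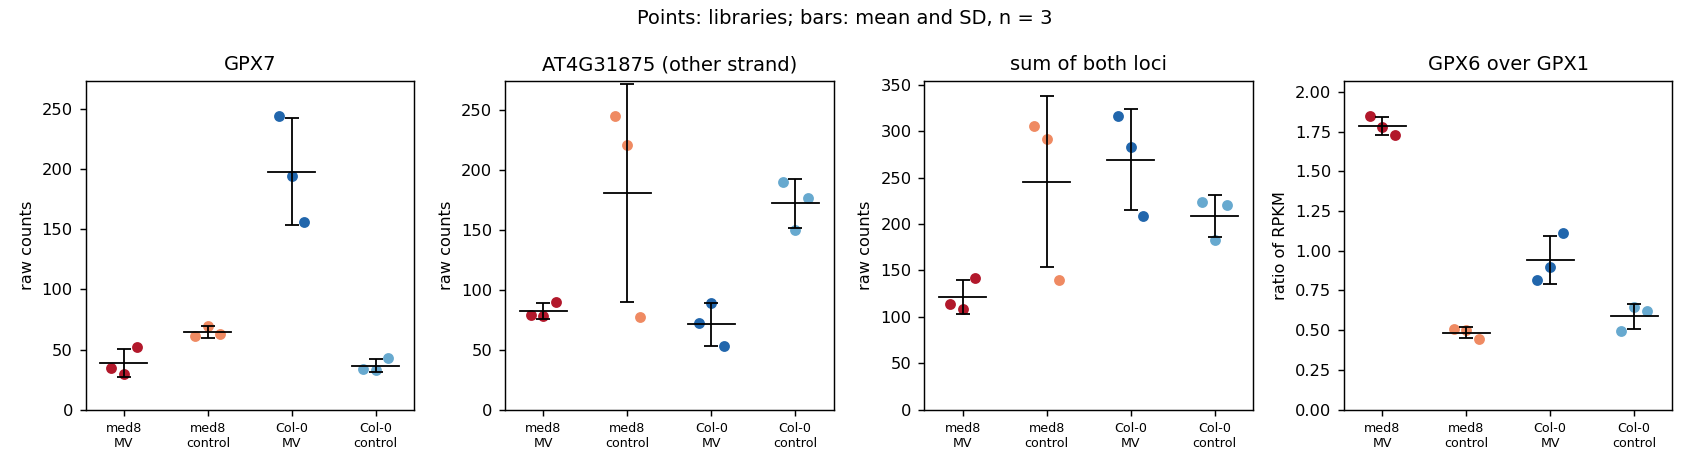
Raw counts of GPX7, of AT4G31875 on the other strand and of their sum (first 3 panels), and the ratio of GPX6 to GPX1 in RPKM (last panel). Points are libraries and bars mean and SD of 3, with med8 on methyl viologen (MV), med8 control, Col-0 on MV and Col-0 control from left to right. GPX7 is highest in Col-0 on MV, AT4G31875 is lower on MV in both genotypes apart from med8 control replicate 3 at 77 reads, and the ratio is highest in med8 on MV.

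GPX2 and GPX6 encode isoforms found outside the plastid, GPX6 in cytosol and mitochondria. GPX6 had 304, 305 and 320 CPM in med8 on methyl viologen, against 224, 241 and 174 CPM in med8 controls. The Col-0 values were 235, 268 and 238 CPM on methyl viologen, against 180, 219 and 203 CPM on control medium. The groups were separate in both genotypes. GPX6 rose in med8 (0.54 ± 0.12, edgeR adjusted p = 0.00289), gave 0.30 ± 0.12 in Col-0 (edgeR adjusted p = 0.0759), and the interaction was 0.24 ± 0.16 (edgeR adjusted p = 0.388). The Col-0 value passed without med8 control replicate 3 (0.3, edgeR adjusted p = 0.0152) and without both libraries that stood apart (0.23, edgeR adjusted p = 0.0401), as well as with library totals (0.42, edgeR adjusted p = 0.0249) and with the root marker covariate (0.4, edgeR adjusted p = 0.00282).

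With GPX1 lower and GPX6 higher, the balance between them differed between groups. The ratio of GPX6 to GPX1 in RPKM was 1.85, 1.78 and 1.73 in med8 on methyl viologen, against 0.51, 0.5 and 0.447 in med8 controls. It was 0.814, 0.899 and 1.11 in Col-0 on methyl viologen, against 0.496, 0.646 and 0.62 in Col-0 controls. The ratio was higher on methyl viologen than on control medium in every library of both genotypes.

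GPX2 had 140, 132 and 122.8 CPM in med8 on methyl viologen, against 143, 144 and 99.4 CPM in med8 controls. The Col-0 values were 159, 181 and 153 CPM on methyl viologen, against 117, 125.4 and 136 CPM on control medium. The med8 groups overlapped and the Col-0 groups did not. GPX2 gave 0.03 ± 0.13 in med8 (95% interval −0.26 to 0.31, edgeR adjusted p = 0.877) and rose in Col-0 (0.38 ± 0.13, edgeR adjusted p = 0.0467), and the interaction was −0.35 ± 0.18 (edgeR adjusted p = 0.254). The Col-0 rise was called in 3 of the 12 fits without 1 library, those without a med8 control, and was lost without any of the other 9 libraries (0.31 to 0.44). Without both libraries that stood apart it was 0.33 (edgeR adjusted p = 0.00991). Without med8 control replicate 3 (−0.52, edgeR adjusted p = 0.0124) and without both libraries that stood apart (−0.47, edgeR adjusted p = 0.0157) the interaction passed.

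Between the genotypes on methyl viologen, 3 of the 10 genes differed, all lower in med8, where 23.7% of all loci differed, 12.9% lower and 10.8% higher. For 7 of the 10 the libraries of the genotypes did not overlap, against 46.3% of all loci. GPX7 was lower in med8 (−2.38 ± 0.21, edgeR adjusted p = 1.48e-05), as were GPX1 (−0.62 ± 0.12, edgeR adjusted p = 0.00364) and SRX (−0.23 ± 0.07, edgeR adjusted p = 0.0363). The SRX call was lost in 6 of the 12 fits that left out 1 library, those without Col-0 control replicate 3, Col-0 methyl viologen replicates 2 and 3 or any med8 library on methyl viologen. It was also lost with upper quartile scaling (−0.2, edgeR adjusted p = 0.0523) and with library totals (−0.19, edgeR adjusted p = 0.1255). The remaining genes ran from −0.32 for GPX2 to 0.33 for GPX6. Without med8 control replicate 3, and likewise without both libraries that stood apart, 7 of the 10 differed. PRXQ (0.22), NTRC (−0.3), GPX2 (−0.32) and GPX6 (0.33) were then added to the 3. In that order these fits called 6390 and 7300 of all loci, against 4906 in the main fit.

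On control medium 1 of the 10 genes differed between med8 and Col-0, where 5.79% of all loci did, 2.81% higher and 2.98% lower in med8. That share rests on 1200 loci, a number that was 446 without Col-0 control replicate 2, 402 without Col-0 control replicate 3, 631 without med8 control replicate 2, 143 with only the groups compared and 1976 with DESeq2. The genotypes did not overlap for 3 of the 10 (PRXQ, GPX1 and GPX7), against 23.3% of all loci. GPX7 was higher in med8 (0.92 ± 0.22, edgeR adjusted p = 0.0294). That call was lost without any of the 3 Col-0 controls or without med8 control replicate 1 or 2 (0.86 to 1.04), without both libraries that stood apart (0.89), and with AT4G31875 added (0.33). The other 9 lay between 0.03 and 0.35, with GPX1 at 0.35 ± 0.12 (edgeR adjusted p = 0.124, but 0.0481 where Col-0 methyl viologen replicate 3 was left out) and NTRC at 0.31 ± 0.14 (edgeR adjusted p = 0.228).

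The effect of methyl viologen itself differed between the genotypes for 2 of the 10 genes, GPX1 and GPX7, both more negative in med8, where 13.9% of all loci had a called interaction, 7.66% negative and 6.25% positive. Both calls held in all 22 alternative fits of this interaction. For GPX7 these include the sum with AT4G31875, which supplied most of the summed reads outside Col-0 on methyl viologen. Without both libraries that stood apart NTRC and GPX2 were called as well. That fit called the interaction for 4094 loci, against 2885 in the main fit.

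Markers of tissue and time of day moved with these groups, and their part in the results was not tested. A fit with root markers is given below. In med8 the root markers moved with the treatment, so that fit cannot tell tissue and treatment apart. The 6 markers of green tissue, such as RBCS1A and LHCB1.3, summed to 36240 to 44560 CPM in med8 on methyl viologen, against 56340 to 68700 CPM in med8 controls, and all 6 fell. In Col-0 they summed to 42260 to 44530 CPM on methyl viologen, against 49700 to 62430 CPM on control medium, with 3 falling and 1, the rubisco activase gene RCA, rising. The 10 root markers summed to 357 to 365 CPM in med8 on methyl viologen, against 179 to 278 CPM in med8 controls, with 5 rising and 2 falling. In Col-0 they summed to 240 to 261 CPM on methyl viologen, against 255 to 310 CPM on control medium, with 2 rising and 3 falling. Of all loci tested, 21.2% fell and 21.8% rose in med8, and 13.4% fell and 15.4% rose in Col-0. No root marker was at 0, the lowest group mean being 0.149 CPM for WOX5 in med8 controls. In bulk seedlings, fewer cells of a type and less RNA per cell cannot be told apart.

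With the mean root marker level as a covariate, the falls on methyl viologen in med8 were −0.6 for 2CPA, −0.56 for 2CPB, −0.43 for PRXQ, −0.5 for NTRC, −1.43 for GPX1 and −1.02 for GPX7, each still past the threshold. The interactions of GPX1 (−1.12) and GPX7 (−3.23) were also called in that fit, as were those of GPX2 (−0.69, edgeR adjusted p = 0.0029) and SRX (−0.37, edgeR adjusted p = 0.0394), which had not been called without the covariate. The NTRC interaction was −0.29 (edgeR adjusted p = 0.306) there, and the fall of GPX1 in Col-0 was not (−0.3, edgeR adjusted p = 0.0655). The difference between 3 morning and 4 evening clock genes in mean log2 CPM was −2.12 to −1.69 in med8 on methyl viologen, against −3.3 to −2.85 in med8 controls. It was −1.14 to −0.41 in Col-0 on methyl viologen, against −4.39 to −4.04 in Col-0 controls.

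For the 4 members that differed most clearly among the groups, the genes nearest in profile were found over all 12 libraries, by the root mean square difference of their centred log2 CPM. The nearest genes to GPX7 were RVE1, a morning MYB-like factor of clock output (0.27 log2 units), BETA-OHASE 1, a beta-carotene hydroxylase gene (0.28), and CDI (0.35), beside a standard deviation of 0.99 for GPX7 itself. Like GPX7, RVE1 fell in med8 (−0.89 ± 0.21, edgeR adjusted p = 0.00523) and rose in Col-0 (2.26 ± 0.21, edgeR adjusted p = 1.72e-05), and so did BETA-OHASE 1 (−0.75 ± 0.16 and 2.06 ± 0.17), whereas CDI rose in Col-0 (1.92 ± 0.12) and was not called in med8 (−0.27 ± 0.12, edgeR adjusted p = 0.0827). GPX1 was nearest to PLPB, a gene for a PAS/LOV protein (0.08), SNG1, of sinapate ester synthesis (0.10), and TPS8, of the trehalose phosphate synthase family (0.15), against a standard deviation of 0.53.

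The neighbours of 2CPA were all plastid ribosomal protein genes, RPL21C (0.03), PRPL11 (0.04) and PSRP4 (0.04), beside a standard deviation of 0.32 for 2CPA. PRXQ lay nearest to WIP2 (0.06), the PsbP-domain gene PPD1 (0.06) and the cytochrome P450 gene CYP97B3 (0.07). These likenesses are descriptions over 12 libraries that share 4 groups.

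**Figure D4:**
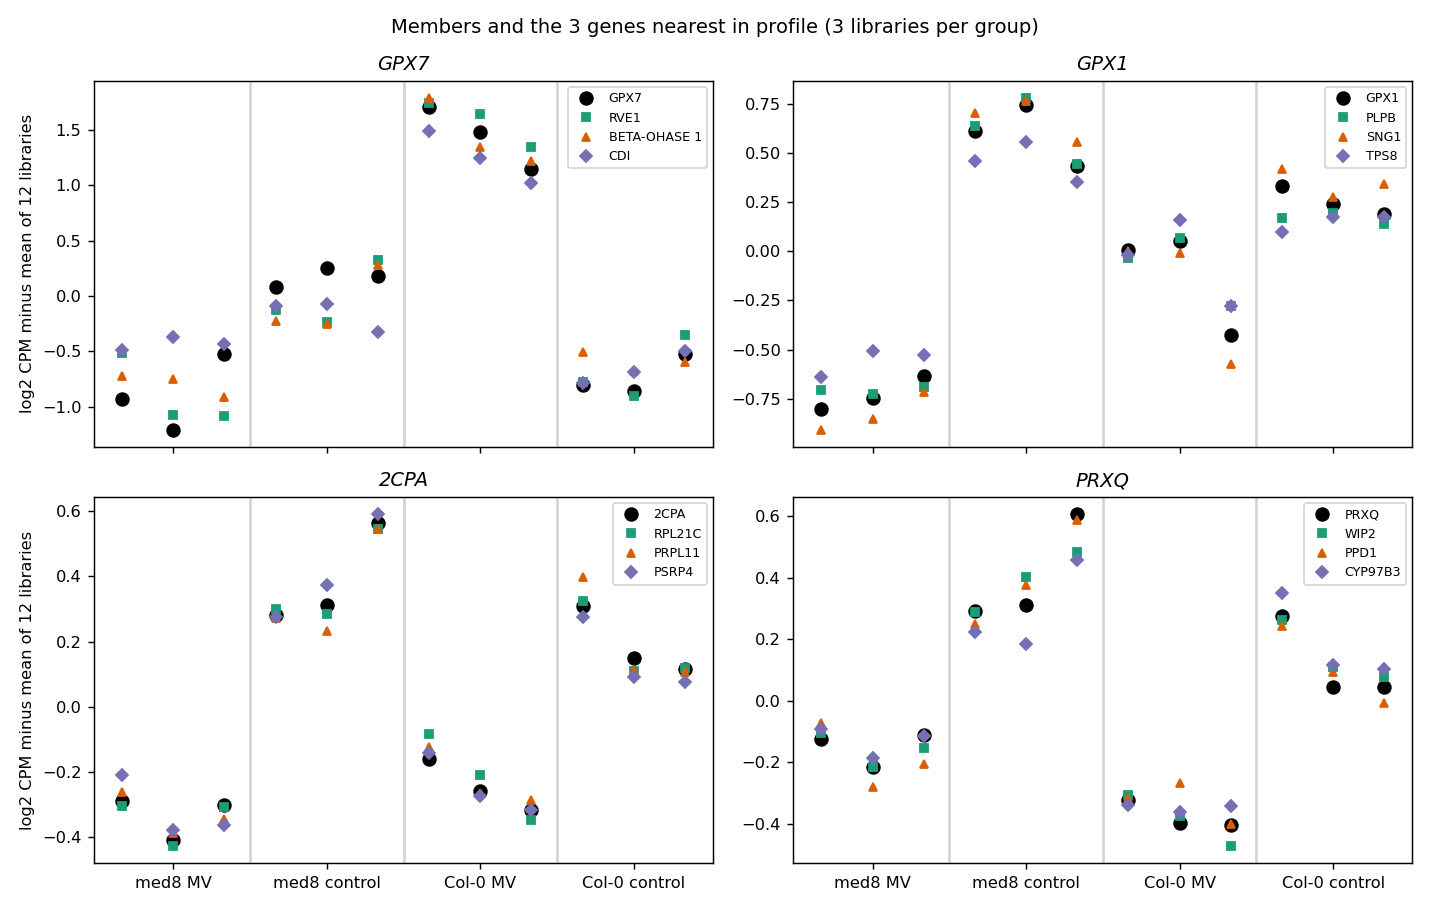
Log2 CPM of GPX7, GPX1, 2CPA and PRXQ (black circles) and of the 3 genes nearest to each (coloured), each centred on its mean over 12 libraries, with the libraries of med8 on methyl viologen (MV), med8 control, Col-0 on MV and Col-0 control from left to right. GPX7 and its neighbours are highest in Col-0 on MV, whereas 2CPA, PRXQ and theirs are below 0 in all 6 libraries on MV.

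Further members of both families were tested as a list of 10 loci, of which 8 were in the table and passed the filter. In med8 3 of the 8 rose and 1 fell (median 0.10), where 43.1% of all loci changed, and in Col-0 1 rose and 1 fell (median −0.02), where 28.8% did, so the counts were near the share of all loci. PRXIIB, the main cytosolic type II peroxiredoxin gene, rose in med8 (0.58 ± 0.08, 189 CPM on methyl viologen against 127 CPM, edgeR adjusted p = 0.000119) and in Col-0 (0.37 ± 0.08, 165 CPM on methyl viologen against 128 CPM, edgeR adjusted p = 0.00399). PRXIIF, of mitochondria, rose in med8 (0.26 ± 0.08, edgeR adjusted p = 0.0178) and gave 0.08 ± 0.08 in Col-0. PRXIID rose in med8 (1.64 ± 0.27, 8.48 CPM on methyl viologen against 2.71 CPM, edgeR adjusted p = 0.000557), and PRXIIC fell in med8 (−1.03 ± 0.29) and in Col-0 (−1.25 ± 0.27). PRXIIC and PRXIID share 75-base windows with 0 mismatches and come within 2 of PRXIIB, so their counts are uncertain. The 4 further GPX genes tested were not called by edgeR in either genotype, with GPX5 at −0.07 ± 0.12 in med8 and −0.30 ± 0.12 in Col-0 and GPX8 at 0.35 ± 0.16 in med8 and −0.06 ± 0.16 in Col-0.

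The plastid thioredoxins and their reductases, which supply electrons to these enzymes, mostly fell. Of 20 such genes 16 fell in med8 and 1 rose (median −0.53), where 21.2% of all loci fell and 21.8% rose. In Col-0 11 fell and 1 rose (median −0.25), where 13.4% of all loci fell and 15.4% rose. The gene that rose in med8 was TRXY1 (0.66 ± 0.19), and the one that rose in Col-0 was ACHT4. FTRA2, for the variable subunit of ferredoxin-thioredoxin reductase, averaged 69.7 CPM on methyl viologen and 124 CPM on control medium in med8 (−0.83 ± 0.10), and 33.7 CPM on methyl viologen and 127 CPM on control medium in Col-0 (−1.91 ± 0.10), and its interaction was called (1.08 ± 0.14, edgeR adjusted p = 0.0004). The thioredoxin-like gene TRXL2.1 also fell more in Col-0 (−1.56 ± 0.09) than in med8 (−1.09 ± 0.09; interaction 0.47 ± 0.12, edgeR adjusted p = 0.022). CDSP32, a plastid thioredoxin that reduces peroxiredoxins, went the other way: it fell in med8 (−0.84 ± 0.10, 187 CPM on methyl viologen against 334 CPM) and gave 0.0007 ± 0.10 in Col-0, and the interaction was −0.84 ± 0.15 (edgeR adjusted p = 0.00278). TRXF2, TRXX, TRXY2, ACHT4 and HCF164 also had negative called interactions, between −0.81 and −0.36. Of these ACHT4 fell in med8 (−0.36 ± 0.09) and rose in Col-0 (0.33 ± 0.09).

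Of 9 genes for thioredoxins and reductases outside the plastid, 4 rose in med8 and the other 5 were not called (median 0.19), where 43.1% of all loci were called. In Col-0 1 rose and 1 fell (median 0.03), where 28.8% of all loci were called. NTRA, a cytosolic and mitochondrial NADPH-thioredoxin reductase gene, rose in med8 (0.54 ± 0.09, edgeR adjusted p = 0.000741) and in Col-0 (0.41 ± 0.09, edgeR adjusted p = 0.00645). TRXH5, a cytosolic thioredoxin of defence signalling, fell in Col-0 (−1.47 ± 0.28, edgeR adjusted p = 0.00275) and gave −0.63 ± 0.28 in med8 (edgeR adjusted p = 0.0899). Of 3 genes known to regulate 2CPA or related to such a regulator, RAP2.4A, an ERF factor that activates it, rose in med8 (2.23 ± 0.20) and in Col-0 (1.43 ± 0.19), in which 2CPA fell. RCD1 gave 0.12 ± 0.07 and 0.18 ± 0.07 in the same order, and its paralogue SRO1 gave 0.0041 ± 0.06 and −0.09 ± 0.06, none past the threshold.

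**Figure D5:**
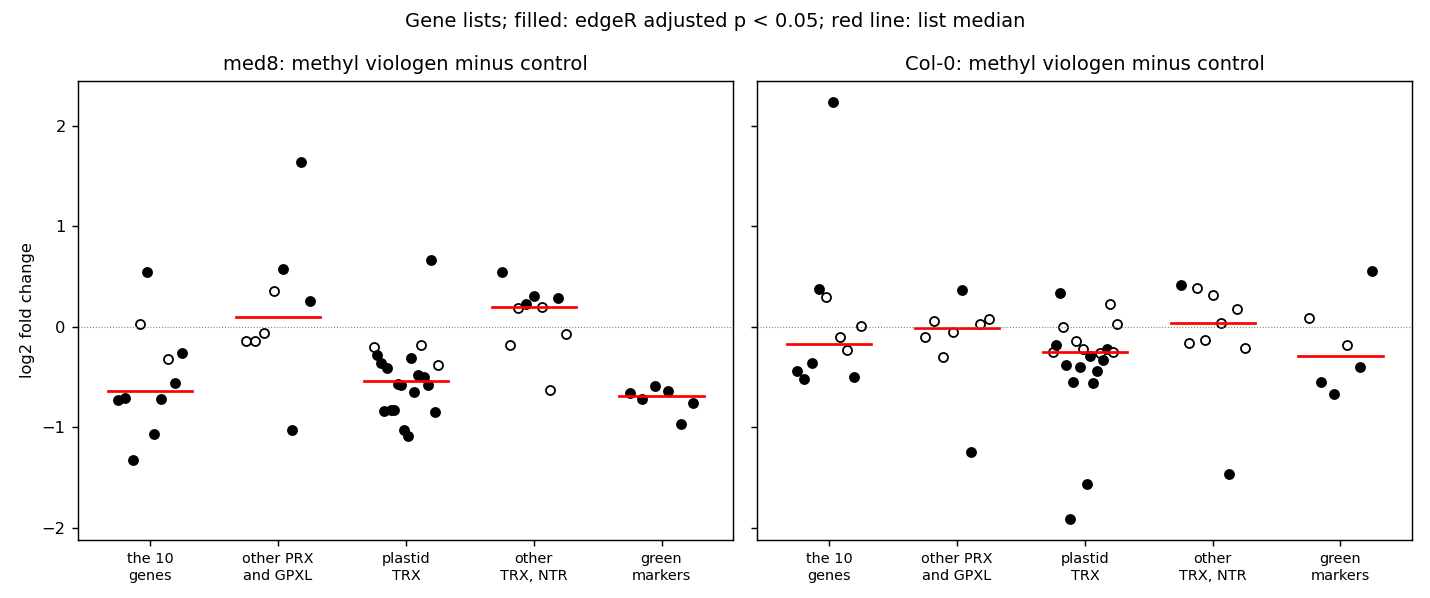
Log2 fold changes on methyl viologen (y axis) for the 10 genes, 8 other peroxiredoxin (PRX) and glutathione peroxidase-like (GPXL) genes, 20 plastid thioredoxin (TRX) genes, 9 other thioredoxin and reductase (NTR) genes and 6 green tissue markers, in med8 (left) and Col-0 (right). Points are genes, filled where the edgeR adjusted p was under 0.05, and red lines are medians, which for the plastid thioredoxins are −0.53 in med8 and −0.25 in Col-0.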

How the data were processed

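The deposited table holds raw counts per locus, made by the authors from TruSeq Stranded mRNA libraries read as 75-base single ends, per the labels. The submitters' processing notes name Trim Galore 0.3.3, TopHat2 2.1.0, featureCounts, Subread 1.4.6 and TAIR10. Each locus has at least 5 counts in at least 3 libraries. The model was edgeR 4.0.16 (R 4.3.3), after TMM scaling and filterByExpr (minimum count 10, minimum total 15; 802 of 21543 loci removed), as a quasi-likelihood fit of all 12 libraries, robust, with the 4 group means as its terms. SE is the log2 fold change divided by the root of F. RPKM uses the union of annotated exons. Gene structures, windows and sequences came from RefSeq TAIR10.1, which has annotation for 21519 loci. No 2 replicates agreed within sampling noise (chi-square per degree of freedom at least 5.84).

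Members, lists, motifs and alternatives were chosen with earlier results of these data known. The text names all 10 members, called members of the context lists, and the 3 symbol-bearing loci nearest to each of the 4 members with the smallest p for any group difference. List members named without a call were picked with their values in view. The alternatives comprised 3 other scalings, 2 other filters, DESeq2 1.42.0, a block for the replicate number, separate fits of the groups compared, a root marker covariate, and fits without each library or without 2 together. The upstream windows of the other members are not reported here.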

Additional observations from a re-analysis of the deposited data

Results flagged for a closer look

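GPX1 and GPX7 were singled out because the effect of methyl viologen differed between med8 and Col-0 by a test of the difference itself. For GPX1 the effect in med8 minus that in Col-0 was −0.97 on the log2 scale (edgeR adjusted p = 0.00349), from effects of −1.33 in med8 and −0.36 in Col-0. For GPX7 it was −3.3 (edgeR adjusted p = 5.26e-05), from −1.07 in med8 and 2.24 in Col-0, and −1.52 (edgeR adjusted p = 0.0127) with the reads of the overlapping AT4G31875 added.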

How the results depend on the processing

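The falls of 2CPA, 2CPB and PRXQ in both genotypes, of NTRC, GPX1 and GPX7 in med8, the rise of GPX6 in med8, and the differences of GPX1 and GPX7 between the genotypes on methyl viologen and in the interaction were called in every alternative run, and so was the rise of GPX7 in Col-0 except with AT4G31875 added. The run with AT4G31875 added says little of GPX7 itself, because AT4G31875 supplied most of the summed reads outside Col-0 on methyl viologen. The 10 genes called between med8 and Col-0 on control medium numbered 1 in the main fit, 0 with a replicate block, with only the groups compared, with root markers or with GPX7 and AT4G31875 summed, 2 with DESeq2, and 0 to 2 without 1 library. Over all loci the calls there numbered 1200 in the main fit, 1002 with a replicate block and 143 with only the groups compared. They numbered 1564 with root markers, 1199 with the 2 loci summed, 1976 with DESeq2 and 402 to 1625 without 1 library. On methyl viologen the called members numbered 3, against 7 with only the groups compared or without both libraries that stood apart, 6 with root markers and 2 to 7 without 1 library. Over all loci the calls there numbered 4906, against 6449, 7300 and 6528 in the first 3 of these settings and 3211 to 6390 without 1 library. In the interaction the called members numbered 2, against 4 without both libraries (with NTRC and GPX2) and 4 with root markers (with SRX and GPX2). Over all loci the called interactions numbered 2885, against 4094 without both libraries and 3249 with root markers. The main fit did not pair samples by replicate number. Deviations of libraries with the same number had correlations of −0.379 to 0.35 over the comparisons, and libraries with different numbers were not compared in this way. Under the replicate block the Col-0 rise of GPX2 (edgeR adjusted p = 0.0501) and the control-medium difference of GPX7 (edgeR adjusted p = 0.0523) missed the threshold.

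Values that changed sign passed the threshold neither before nor after. With upper quartile scaling this was SRX in Col-0 (−0.01). With library totals, which moved the median of all loci by 0.225 in med8 and 0.125 in Col-0, it was NTRC in Col-0 (0.02), SRX and GPX2 between genotypes on control medium (both −0.02), 2CPB between genotypes on methyl viologen (0.01), and the interactions of PRXQ (0.04) and PRXIIE (0.01). Without both libraries it was NTRC (0.02) and SRX (−0.03) in Col-0 and GPX2 in med8 (−0.14). With root markers it was GPX2 in med8 (−0.18), 2CPB (−0.01) and PRXIIE (−0.11) between genotypes on control medium, 2CPB on methyl viologen (0.02), and the interactions of 2CPB (0.04), PRXQ (0.15), PRXIIE (0.23) and GPX6 (−0.03). Without 1 library, values ran in Col-0 from −0.18 to 0.02 for NTRC and −0.05 to 0.05 for SRX, and in med8 from −0.14 to 0.12 for GPX2. Between genotypes on control medium they ran from −0.05 to 0.23 for PRXIIE, −0.02 to 0.09 for SRX, −0.06 to 0.2 for GPX2 and −0.01 to 0.22 for GPX6, and on methyl viologen from −0.03 to 0.09 for PRXIIE. The interactions ran from −0.14 to 0.04 for PRXQ and −0.19 to 0.08 for PRXIIE. The cause of these changes was not tested. Depth limits GPX7 most, with 30 to 244 counts a library.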

Other observations

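The 2 paralogous 2-Cys peroxiredoxin genes kept a nearly constant balance. 2CPA made up 80.9% to 81.8% of the summed RPKM of 2CPA and 2CPB in med8 on methyl viologen, 80.9% to 81.9% in med8 controls, 81.4% to 82.1% in Col-0 on methyl viologen and 79.96% to 81.5% in Col-0 controls, so the groups overlapped.

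The 4 peroxiredoxin genes together summed to 835 to 907 RPKM in med8 on methyl viologen, against 1240 to 1554 RPKM in med8 controls, and to 846 to 904 RPKM in Col-0 on methyl viologen, against 1105 to 1298 RPKM in Col-0 controls. The 4 GPX genes summed to 612 to 630 RPKM in med8 on methyl viologen, against 660 to 865 RPKM in med8 controls. In Col-0 they summed to 613 to 757 RPKM on methyl viologen and 659 to 685 RPKM on control medium, where the groups overlapped.

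One library stood out in several members. Med8 control replicate 3 held the highest level of all 12 libraries of 2CPA (947 CPM), 2CPB (275 CPM), PRXQ (469 CPM), PRXIIE (221 CPM) and NTRC (288 CPM), and the lowest of GPX2 (99.4 CPM) and GPX6 (174 CPM). It also had the lowest summed root markers (179 CPM) and the highest summed green tissue markers (68700 CPM).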
